A study of Mus musculus with 28 samples.

Results

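The 26S proteasome is the protease complex that degrades proteins marked with ubiquitin. Its core particle is a stack of alpha rings and beta rings, of which the beta rings hold the cutting sites, and its regulatory particle is a ring of ATPases with a set of non-ATPase subunits that binds, deubiquitinates and unfolds the substrate. In the testis it is known for removing histones and other proteins while spermatids remodel, with a germ cell form of an alpha subunit (Psma8) and an activator that binds acetylated histones (Psme4). The genes described here are those whose array annotation gives a symbol of Psm, a letter from a to g and a number (Psmc3ip, a meiotic recombination factor, was left out). There were 47 such genes, with 100 probe sets, among 18193 genes with 34945 probe sets of unambiguous symbol. By role they were 8 alpha subunits, 7 standard beta subunits, 4 immune or thymus beta subunits, 6 ATPases, 11 non-ATPase subunits, 3 chaperones of the regulatory particle, 4 chaperones of the core particle, 3 activators and 1 inhibitor. Psme2 is not among them because its probe set also carried a second symbol.

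RNA of adult male C57BL/6 mice was hybridised to 28 single-colour Affymetrix arrays. The mice were wild type (WT) or null for the gene Ddx25, whose product is the gonadotropin-regulated testicular RNA helicase (GRTH), a DEAD-box protein of male germ cells and Leydig cells (KO). Spermatocytes (4 WT and 4 KO arrays), round spermatids (3 and 3) and Leydig cells (2 and 2) were separated by centrifugal elutriation, and total testicular polysome RNA (3 and 3) was taken from sucrose gradients. Polysomes of WT testis were also pulled down with an antibody to GRTH (2 arrays) or with control IgG (2 arrays), and that RNA was labelled by a longer procedure. The labels do not say that replicates came from separate animals, so p-values measure the spread between these arrays, which may be technical. Values below are array signals with each array scaled to a trimmed mean of 500; differences are on the log2(signal + 16) scale with their standard error, and a gene is called higher or lower at an adjusted p under 0.05. In each comparison the 9097 brighter genes were tested. Overlap of groups is described for single genes, and the share of all genes without overlap was not counted. A probe set's signal is not a molar amount, so levels are compared between groups within a gene and never between genes.

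Ddx25 itself averaged 14907 in WT and 3079 in KO spermatocytes, 16692 and 4234 in round spermatids, 14054 and 3524 in Leydig cells, and 16869 and 822.1 in polysome RNA, so each KO group lay below its WT group. The labels were checked against marker lists. Summed signals of 8 round spermatid markers ran from 109187 to 125965 in WT round spermatids and from 31982 to 33536 in WT spermatocytes. For 9 spermatocyte markers the sums overlapped, at 58959 to 71181 in WT spermatocytes and 48098 to 62484 in WT round spermatids. The Leydig cell arrays held Leydig markers (sums over 6 genes of 30945 to 30999, against 6272 to 6865 in WT spermatocytes) at about the level of WT total polysome RNA (21004 to 40506), together with spermatid transcripts (Prm1, a protamine, at 20602). In KO, 14 of 14 elongating spermatid markers were lower in polysome RNA (median log2 difference -2.87), spermatocytes (-0.97), round spermatids (-0.82) and Leydig cells (-0.64). Their part in the results below was not tested, and in such bulk samples fewer cells of a type cannot be told apart from less RNA per cell. The ratio of 3' to 5' actin signal, a sign of RNA integrity, was 1.41 to 2.09 except on the pulldown arrays (3.81 to 12.8).

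**Figure D1:**
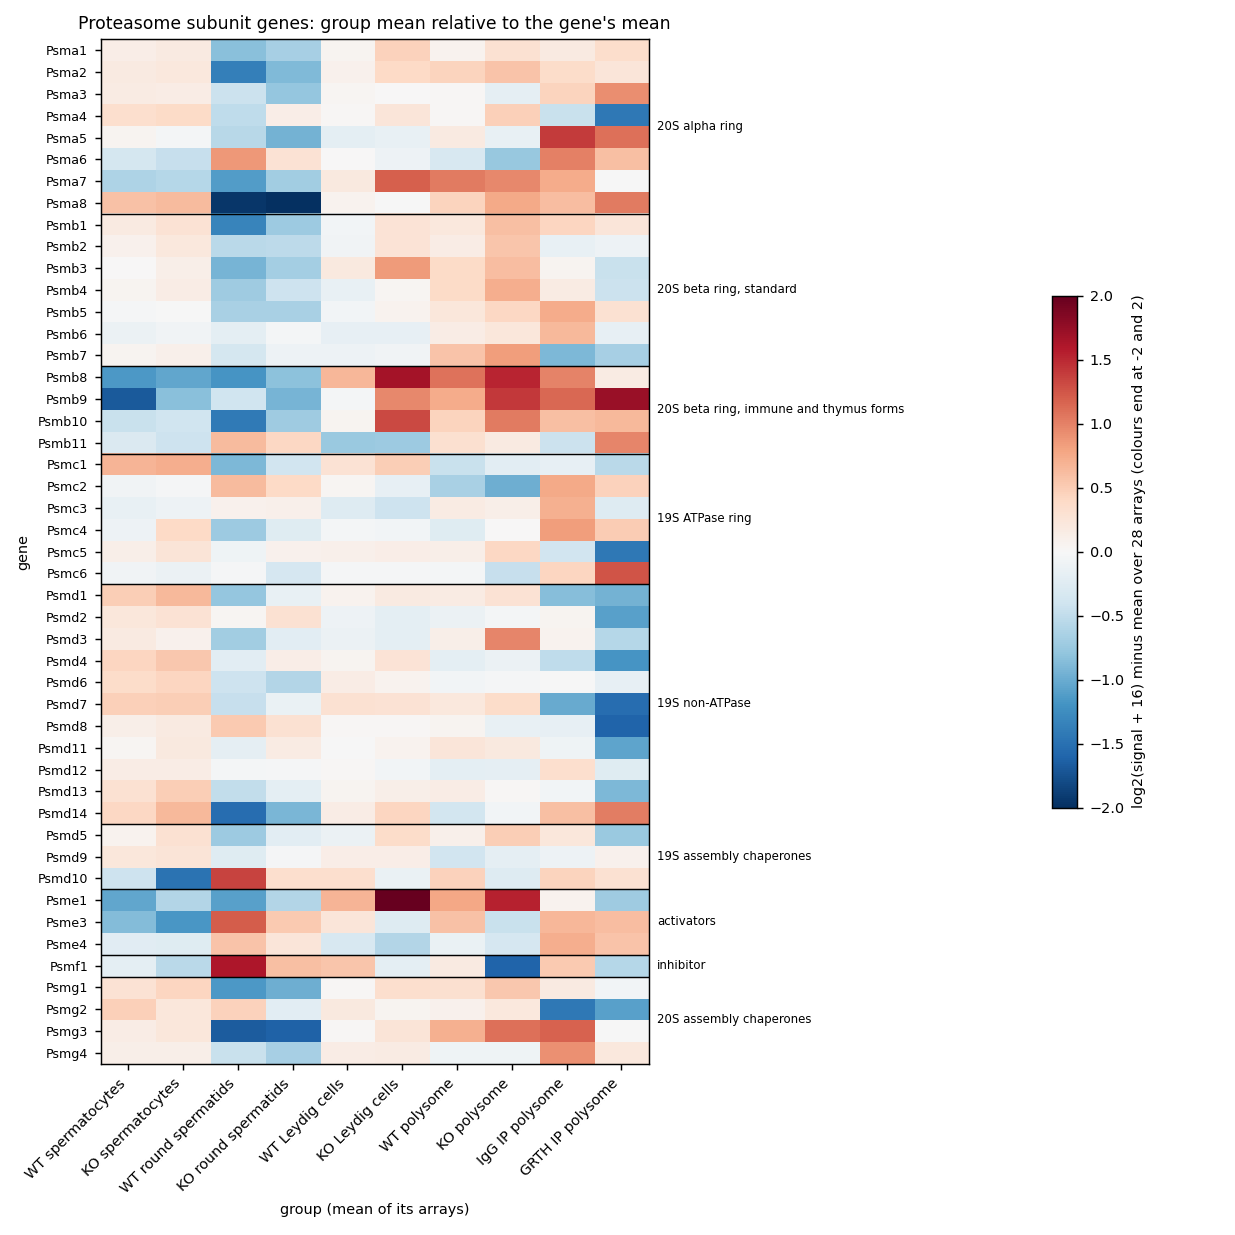
Heat map of the 47 proteasome genes (rows, ordered by role) in the 10 groups (columns). Colour is the group's mean log2(signal + 16) minus the gene's mean over the 28 arrays, red for higher and blue for lower, with colours that end at -2 and 2; most core and regulatory genes are bluer in round spermatids than in spermatocytes, while Psme3, Psmf1, Psmd10 and Psma6 are redder there.

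In WT mice, 7 proteasome genes were higher and 31 lower in round spermatids than in spermatocytes, of 43 tested; the 4 not tested were the dim immune and thymus beta subunits Psmb8, Psmb9, Psmb10 and Psmb11. Among all tested genes 36.2% were higher and 51.0% lower (87.2% called), and the median log2 difference was -0.24, against -0.61 over the proteasome genes. The genes that rose were the activators Psme3 and Psme4, the inhibitor Psmf1, the regulatory-particle chaperone Psmd10, the alpha subunit Psma6, the ATPase Psmc2 and the non-ATPase subunit Psmd8. The standard beta subunits had 6 lower of 7 (median -0.63), the alpha subunits 7 lower of 8 (-0.73), the non-ATPase subunits 10 lower of 11 (-0.78) and the core chaperones 3 lower of 4 (-1.01). The ATPases were divided, with 3 lower and 1 higher of 6 (-0.08). All 3 regulatory-particle chaperones were called, Psmd5 and Psmd9 lower and Psmd10 higher.

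Psma8, the germ cell alpha subunit that takes the place of Psma7, read 10720, 10030, 9221 and 8723 on the WT spermatocyte arrays and 1754, 1691 and 1511 on the WT round spermatid arrays. The groups did not overlap, and the difference was -2.54 ± 0.09 (adjusted p = 1.15e-08, a 5.80-fold fall). Psma7, the alpha subunit of somatic proteasomes, read 566.6, 632.6, 504.3 and 574 in spermatocytes against 352.3, 403.9 and 441.4 in round spermatids, a smaller fall of 0.50 on the log2 scale (adjusted p = 0.00106). Psma6 moved the other way. It read 12760, 11620, 11250 and 10600 in spermatocytes (11558 ± 906, SD, n = 4) and 31820, 28240 and 21580 in round spermatids (27215 ± 5201, n = 3), a rise of 1.22 ± 0.13 with no overlap.

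Psmd14, the deubiquitinase of the regulatory particle, read 4029, 3959, 3921 and 3793 in WT spermatocytes and 1026, 1011 and 977.4 in WT round spermatids. This fall of 3.86-fold (-1.95 ± 0.05, adjusted p = 4.40e-09) had the smallest p of the proteasome genes. Psmg3, a chaperone of alpha ring assembly, read 428.1, 510.2, 361.7 and 450.9 in spermatocytes and 101.9, 107.6 and 126.5 in round spermatids, again with no overlap. Its round spermatid mean lay under the lowest mean tested (7.43 on the log2 scale), so Psmg3 was tested only because of its brighter spermatocyte arrays. The ATPase Psmc1 read 2760, 2805, 2706 and 2758 against 919.5, 972.7 and 866.6, a fall of 1.57 on the log2 scale. Among the genes for the catalytic beta subunits, Psmb5 (chymotrypsin-like activity) fell from 4460 ± 134 to 2888 ± 291 and Psmb7 (trypsin-like) from 12781 ± 991 to 9653 ± 520. For Psmb6 (caspase-like) the arrays overlapped, at 7277 to 8150 and 6778 to 7754, with a difference of -0.08 ± 0.07 (adjusted p = 0.301). With all genes tested, 2 immune subunits passed: Psmb10, which replaces Psmb7, was lower in round spermatids (-0.97, adjusted p = 0.000109) and Psmb9, which replaces Psmb6, higher (1.27, 0.000813), the latter at signals of 7.11 to 21.69 and 44.55 to 59.61. Leaving out single arrays ended the stage calls of Psmd2 and Psmd11 in WT, and the ATPase Psmc3 (0.23, adjusted p = 0.0654) passed with the replicate block (0.0280).

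The largest rises were those of Psme3, Psmf1 and Psmd10, regulators that bind the core or its base, followed by that of the alpha subunit Psma6. Psme3, the nuclear activator also called PA28 gamma, read 1630, 1651, 1846 and 1837 in WT spermatocytes and 7665, 7075 and 7308 in WT round spermatids. Every round spermatid array was above every spermatocyte array (2.07 ± 0.07, 4.20-fold, adjusted p = 9.49e-09). Psmf1, the inhibitor PI31, read 5093, 5030, 5979 and 5742 in spermatocytes and 21160, 19390 and 17080 in round spermatids, a difference of 1.81 ± 0.09 (adjusted p = 1.37e-07) with no overlap. Psmd10, the chaperone called gankyrin, read 437.5, 466.1, 409.7 and 416.8 against 1527, 1546 and 1473. That is 3.42-fold higher in round spermatids (adjusted p = 1.25e-08). Psme4, the activator PA200, rose by 0.80 ± 0.15, and the other 2 bright probe sets of that gene rose as well (0.63 and 0.51).

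The other probe sets of Psmf1 and Psme3 went against those chosen for the test, which were the brightest of each gene. For Psmf1 the probe set 1451337_at rose between the stages by 1.81, whereas 1424369_at and 1424370_s_at differed by -1.38 and -1.47 (adjusted p over all probe sets 5.08e-06 and 5.03e-07). For Psme3, 1418079_at rose by 2.07 and 1418078_at fell by 0.93 (5.94e-05). The mean over all probe sets of Psmf1 reversed the sign of its stage difference, to -0.60. The probe sets also parted in the KO comparisons. In KO round spermatids 1418078_at of Psme3 rose by 0.63 (adjusted p over all probe sets 0.0150) and 1424370_s_at of Psmf1 by 0.28 (0.0371), and in KO Leydig cells these differed by 0.06 (0.160) and 0.01 (0.764). In KO spermatocytes 1424370_s_at read 912.4 to 959, above its WT arrays (814 to 896.9). There 1424369_at overlapped (738.6 to 823.8 in KO, 649.7 to 775.9 in WT), as did 1418078_at (639.4 to 832.2 and 766.4 to 836.1). The values of Psmf1 and Psme3 below are those of 1451337_at and 1418079_at and hold for these probe sets; which transcripts each detects was not tested. Psmd10, Psmd14, Psma8, Psme1, Psmb10 and Psma4 each have 1 probe set.

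**Figure D2:**
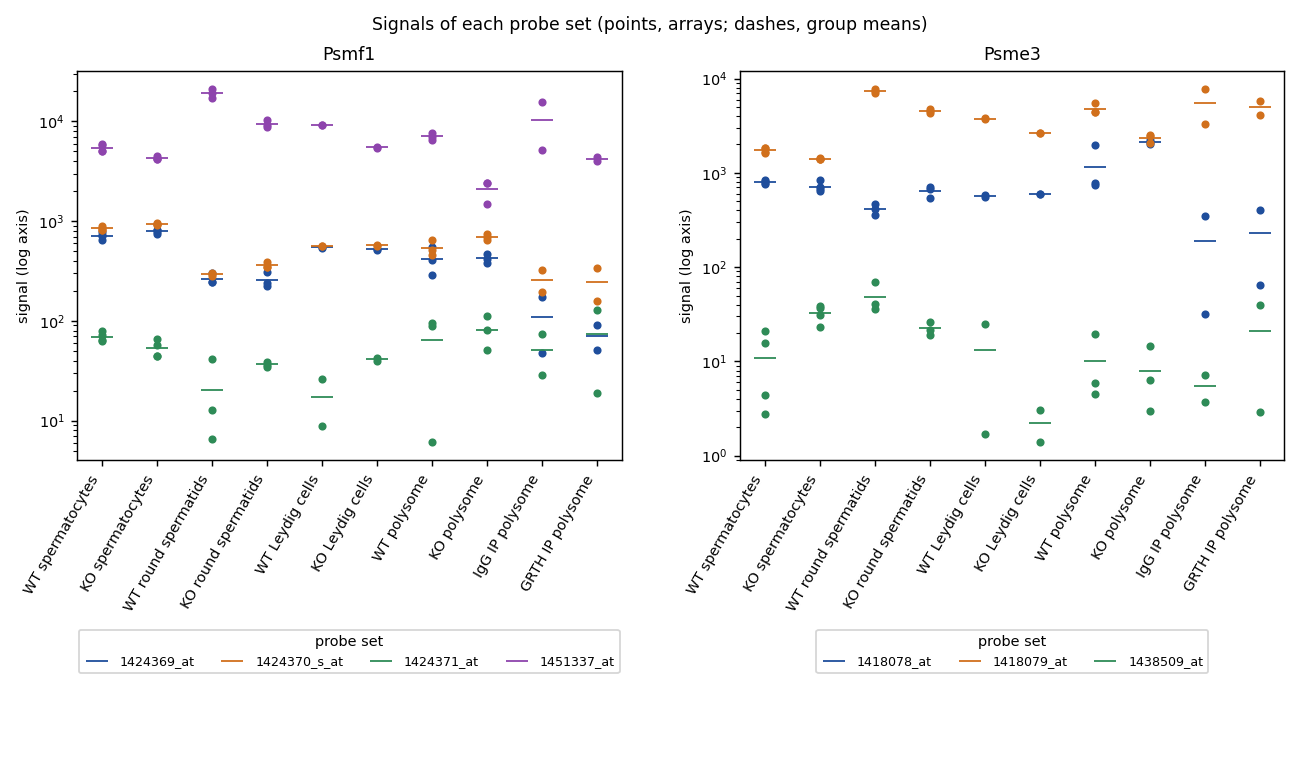
Signals of each probe set of Psmf1 and Psme3 on the 28 arrays (points, log axis), by group, with group means as dashes. The brightest of each gene (1451337_at and 1418079_at) are higher in WT round spermatids than in WT spermatocytes and lower in KO than in WT polysome RNA, while 1424369_at, 1424370_s_at and 1418078_at are lower in WT round spermatids than in WT spermatocytes; heights of different probe sets cannot be compared as amounts.

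Promoters of the members that moved furthest were read from RefSeq (GRCm38.p6) in windows from 250 bases before to 50 bases after the annotated start; 39 of the 47 genes had a window. The stretches below are the 100 bases before the start, read along the gene, of Psmf1 (chr2:151741311-151741410, minus strand), Psme3 (chr11:101316113-101316212, plus strand) and Psmd10 (chrX:140956712-140956811, minus strand), which are shown because these genes rose in round spermatids and were lower in KO. Capitals mark CCAAT boxes (CCAAT or its complement ATTGG) and GC boxes (GGGCGG or CCGCCC).
Psmf1: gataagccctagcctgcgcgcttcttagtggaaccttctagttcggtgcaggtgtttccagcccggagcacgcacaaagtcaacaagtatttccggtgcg
Psme3: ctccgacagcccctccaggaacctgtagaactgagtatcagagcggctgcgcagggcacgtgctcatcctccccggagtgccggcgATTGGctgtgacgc
Psmd10: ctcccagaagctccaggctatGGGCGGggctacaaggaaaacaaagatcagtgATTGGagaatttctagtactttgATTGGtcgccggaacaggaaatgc

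The Psme3 stretch held 1 CCAAT box, 14 bases before the start, and the Psmd10 stretch held 2, at 47 and 24 bases, and a GC box. No searched motif was found in the Psmf1 window. Searching both strands of every window, each motif on its own, the CRE (TGACGTCA, the site of CREM, an activator of spermatid genes) was found in 0 of 39 proteasome genes, against 2.03% of the 27025 genes with a window. CCAAT was found in 14 genes (35.9%, against 41.1% of all genes), the GC box in 22 (56.4% against 38.2%), the antioxidant response element (TGACNNNGC) in 6 (15.4% against 14%), the interferon-stimulated response element (GAAA, any 2 bases, GAAA) in 5 (12.8% against 3.99%) and the STAT motif TTCNNNGAA in 3 (7.69% against 9.55%). Matches of letters are a description and show no binding.

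In KO mice, 6 proteasome genes were higher and 30 lower in round spermatids than in spermatocytes, of 43 tested (38.8% and 46.5% of all tested genes, 85.3% called), with a median of -0.44 against -0.10 over all genes. Psmd10 (1.82), Psme3 (1.67), Psmf1 (1.14), Psma6 (0.73), Psme4 (0.48) and Psmc2 (0.42) were the 6 that rose. The largest falls were in Psma8 (-2.66), Psmg3 (-1.85), Psmd14 (-1.56) and Psmg1 (-1.41), another core chaperone. As in WT, the round spermatid mean of Psmg3 lay under the lowest mean tested (7.49 on the log2 scale), and its spermatocyte arrays brought it into the test. Psmg2, the partner of Psmg1, fell by 0.44 in KO (adjusted p = 0.000273) and differed by -0.02 ± 0.06 between the WT stages. Leaving out single arrays ended the calls of Psmb7, Psmc5, Psmc6 and Psmd3, and Psmc3 (0.20, adjusted p = 0.0538) passed with the replicate block (0.0334). The test of the stage difference between genotypes is given with the round spermatids.

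**Figure D3:**
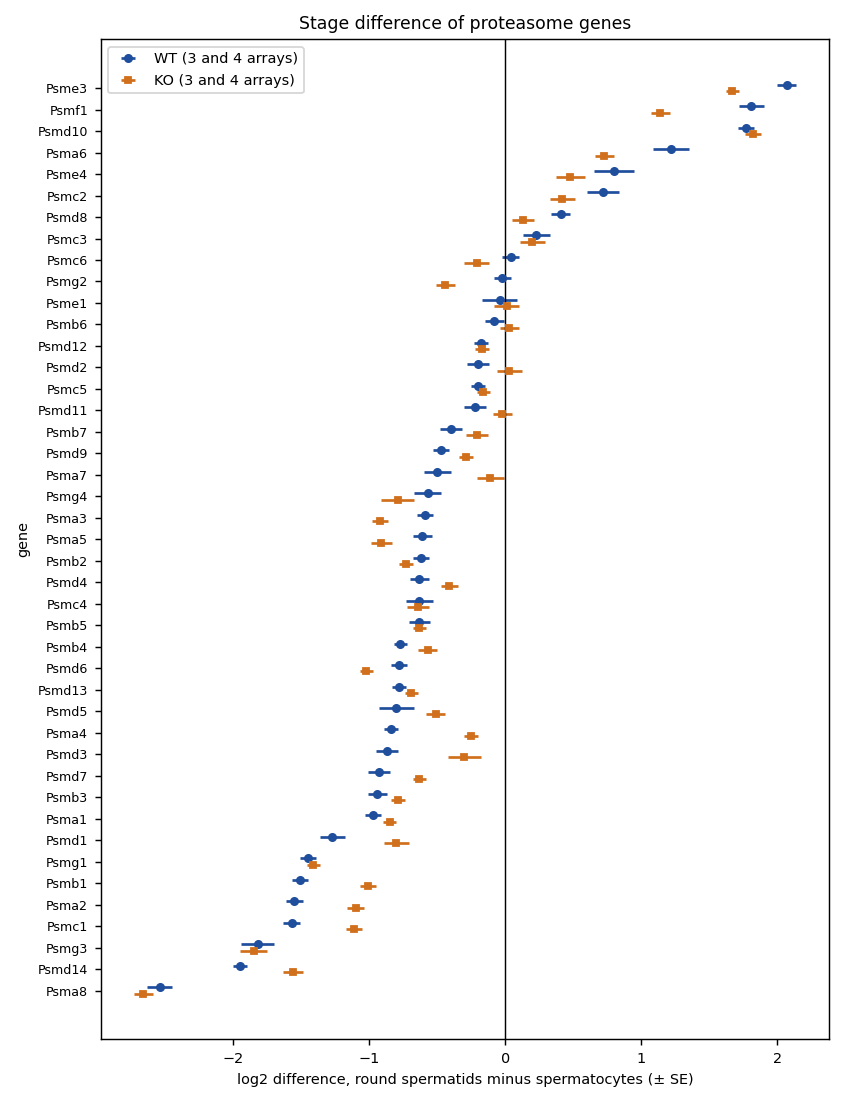
Log2 difference between round spermatids and spermatocytes for the tested proteasome genes, with standard errors, in WT (blue) and in KO (orange), ordered by the WT difference. Psma8 and Psmd14 lie far below 0 and Psme3, Psmf1 and Psmd10 far above 0 in both genotypes; Psmf1 is 1.81 in WT and 1.14 in KO.

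In KO spermatocytes, 7 of 43 tested proteasome genes were higher and 4 lower than in WT (19.6% and 17.8% of all tested genes, 37.4% called); the median was 0.05 against 0.03 over all genes. The rises were led by the ATPase Psmc4, by its brightest probe set, and the activator Psme1, and the falls by Psmd10, Psmf1 and Psme3. The standard beta subunits had 1 gene called, Psmb2, and the alpha subunits had 0 called of 8 (with the replicate block Psma6, at -0.10, passed, adjusted p = 0.0364). Psmd10 read 437.5, 466.1, 409.7 and 416.8 on the WT arrays and 179.2, 204.8, 201.9 and 212.1 on the KO arrays. The KO values were all under the lowest WT value, and the difference was -1.06 ± 0.06 (2.08-fold, adjusted p = 2.45e-06). Psmf1, read at 5030 to 5979 in WT, was at 4322, 4162, 4450 and 4190 in KO (-0.35 ± 0.06, adjusted p = 0.00244). Psme3, read at 1630 to 1846 in WT, was at 1393, 1416, 1413 and 1439 in KO (-0.29 ± 0.05, adjusted p = 0.00217). Neither gene's groups overlapped. Psmg2, a core chaperone, read 3800, 3760, 3833 and 3757 in WT and 3018, 2921, 3457 and 3328 in KO (-0.25, adjusted p = 0.00775), also apart.

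Psmc4, an ATPase of the base, read 3370, 3172, 2960 and 2870 in WT and 3912, 4301, 4954 and 4301 in KO spermatocytes, without overlap (0.49 ± 0.08, adjusted p = 0.00107). Its other bright probe set, 1416291_at, rose less, from 1990, 2086, 2149 and 2105 in WT to 2227, 2227, 2490 and 2464 in KO. Psme1, the alpha subunit of the interferon-inducible activator PA28, read 172.2, 203.9, 227.5 and 224 in WT and 280.6, 306.5, 262.8 and 309.7 in KO, again apart (0.46 ± 0.09, adjusted p = 0.00310). In the same arrays 5 of 6 Leydig markers were higher in KO (median 0.41, sums 6272 to 6865 in WT and 8528 to 9371 in KO), and their part in the value of Psme1 was not tested. Smaller rises without overlap were those of Psmd14 and of Psmd13, a non-ATPase subunit. Psmd14 was at 4820, 4754, 4524 and 4248 in KO against 3793 to 4029 in WT (0.22, adjusted p = 0.00737), and Psmd13 at 2888, 2818, 2806 and 2775 against 2374 to 2517 (0.19, adjusted p = 0.00465). Another bright probe set of Psmd13, 1437220_x_at, overlapped, at 1406, 1298, 1179 and 1251 in WT and 1324, 1377, 1145 and 1186 in KO. With all genes tested the immune subunit Psmb9 was higher (0.83, adjusted p = 0.0285), at signals of 7.11 to 21.69 in WT and 19.16 to 40.21 in KO, which overlapped. Psma8 did not pass, at 9676 ± 884 in WT and 9998 ± 903 in KO (adjusted p = 0.687). Within each genotype arrays 1 and 2, and 3 and 4, were closer to each other than other pairs (SD of the log2 difference 0.141 to 0.167 against 0.221 to 0.242), and with each such pair averaged Psmc4, Psme1 and Psmd10 were still called and 8 genes were not. Of these 8, Psmf1 had an adjusted p of 0.0703, Psme3 of 0.0881, Psmg2 of 0.140, Psmd14 of 0.153 and Psmd13 of 0.174. Centring the arrays on their medians also ended the calls of Psmg2 (0.0506), Psmd14 (0.0929) and Psmd13 (0.204), and the mean of all probe sets those of Psmf1 (0.169), Psmd13 (0.201), Psme3 (0.290, with the sign turned to 0.14) and Psmg2 (0.411). With the replicate number as a block the counts were 12 higher and 5 lower, with Psmb3, Psmb4, Psmd1, Psmd5 and Psmd11 added to the higher genes (adjusted p = 0.00611 to 0.0468). Leaving out single arrays ended the calls of Psmb2, Psmc5 and Psmg1, each with a difference of 0.14 or less.

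In KO round spermatids the counts were larger: 20 of 42 tested proteasome genes were higher and 10 lower (41.0% and 22.4% of all tested genes, 63.4% called), with a median of 0.17 against 0.15 over all genes. The non-ATPase subunits had 8 higher and 2 lower of 11, the standard beta subunits 4 higher and 0 lower of 7, the alpha subunits 3 and 3 of 8, the ATPases 2 and 1 of 6, and the regulatory-particle chaperones 2 and 1 of 3. Psmf1 read 21160, 19390 and 17080 in WT and 9159, 8877 and 10350 in KO. The KO arrays lay between the WT spermatocyte arrays and the WT round spermatid arrays, 2.03-fold under the latter (-1.02 ± 0.10, adjusted p = 0.000125). Psmd10 read 1527, 1546 and 1473 in WT and 734.4, 737 and 757.3 in KO, a 2.02-fold fall with narrow groups (adjusted p = 1.69e-05). Psme3 read 7665, 7075 and 7308 in WT and 4756, 4558 and 4357 in KO (-0.69 ± 0.07, adjusted p = 0.000127), likewise without overlap. Psmg2, which binds Psmg1 to start the alpha ring, read 3970, 3814 and 3471 in WT and 2346, 2279 and 2366 in KO (-0.68 ± 0.07, adjusted p = 0.000177); its second bright probe set fell by 0.94.

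The genes with the largest rises in KO round spermatids belong to the core and to the lid or base of the regulatory particle. Psma4, an alpha subunit, read 2463, 2380 and 2541 in WT and 3736, 3805 and 4000 in KO (0.64 ± 0.06, 1.56-fold, adjusted p = 0.000138). Psmd1, a scaffold subunit of the base, read 1161, 1160 and 1220 in WT and 1859, 1834 and 1794 in KO (0.62 ± 0.06, adjusted p = 0.000121). Neither gene's groups overlapped. Psmd14 read 1026, 1011 and 977.4 in WT and 1465, 1489 and 1668 in KO (0.61 ± 0.07, adjusted p = 0.000317). Psmb1, a non-catalytic beta subunit, read 1384, 1407 and 1356 in WT and 2035, 2074 and 2207 in KO. All 4 had fallen from spermatocytes to round spermatids in WT, and their KO arrays lay between the levels of the WT stages. Such a stage fall was shared by 31 of the 43 proteasome genes tested and by 51.0% of all tested genes. The stage fall and the KO rise also use the same WT round spermatid arrays, so they are not independent. Psma8, which fell most between the stages, did not pass here (1652 ± 126 and 1563 ± 37.2, adjusted p = 0.407), nor did the catalytic Psmb5 (0.00 ± 0.09, adjusted p = 0.967). Psme1 lost its call with the replicate block (adjusted p = 0.0519 against 0.0180 without it) and without KO array 2 (0.0606). Psma7 lost its call without KO array 3 (0.0552) or WT array 1 (0.0660). Psmb3, Psmb7, Psmd2, Psmd6, Psmd8 and Psmd9, all with differences of 0.28 or less in size, also lost theirs without some arrays. With the replicate block 23 genes were higher and 13 lower, the latter with Psme4 (-0.33, adjusted p = 0.00854 against 0.100 without the block). The other 2 bright probe sets of Psme4 differed by 0.01 and -0.01 there (adjusted p over all probe sets 0.962 and 0.924). The other genes that passed with the block were Psma1, Psmb6, Psmc5 and Psmg1, higher, and Psmc2 and Psmg4, lower (adjusted p = 0.0271 to 0.0464). With all genes tested Psmb10 was higher (0.71, adjusted p = 0.0261), at 67.65, 66.15 and 51.6 in WT and 89.21, 109.4 and 138 in KO. Of the 6 Leydig markers 2 were tested in this comparison and both were higher (sums over the 6 of 868 to 932 in WT and 1281 to 1473 in KO), and their part in these values was not tested.

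The promoter stretches of Psma4 (chr9:54950759-54950858, plus strand) and Psmd14 (chr2:61711594-61711693, plus strand) are shown as examples of genes that fell between the stages and were higher in KO, with the same motifs in capitals.
Psma4: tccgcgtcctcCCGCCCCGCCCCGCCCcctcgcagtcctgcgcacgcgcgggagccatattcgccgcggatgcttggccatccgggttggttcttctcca
Psmd14: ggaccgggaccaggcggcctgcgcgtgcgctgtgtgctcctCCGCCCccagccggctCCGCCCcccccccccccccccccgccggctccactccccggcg

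These stretches held 3 and 2 GC boxes and no CCAAT box, with 72% and 85% G or C against 55% for Psmf1, 65% for Psme3 and 49% for Psmd10. The longer window of Psmd14 held CCAAT boxes outside the stretch shown, at -159, 4 and 7 relative to the start.

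The knockout difference itself changed between the stages for 17 of 43 proteasome genes, 10 with a higher and 7 with a lower value in round spermatids than in spermatocytes (32.3% and 13.7% of all tested genes, 46.0% called). This is the same quantity as the difference between genotypes in the stage change. Psma4 (0.58), Psmd3 (0.57), a lid subunit, and Psmb1 (0.50) had the largest higher values, and Psmf1 (-0.67), Psma6 (-0.48), Psmg2 (-0.43) and Psme3 (-0.39) the largest lower ones. For Psmd10 the change was 0.05 ± 0.09 (adjusted p = 0.690). With the replicate block the counts were 15 and 12, with Psmb7, Psmd2, Psmd4, Psmd9 and Psmd11 added to the higher values (adjusted p = 0.00508 to 0.0395) and Psmc2, Psmc6, Psmd8, Psme4 and Psmg4 to the lower ones (0.00179 to 0.0301).

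**Figure D4:**
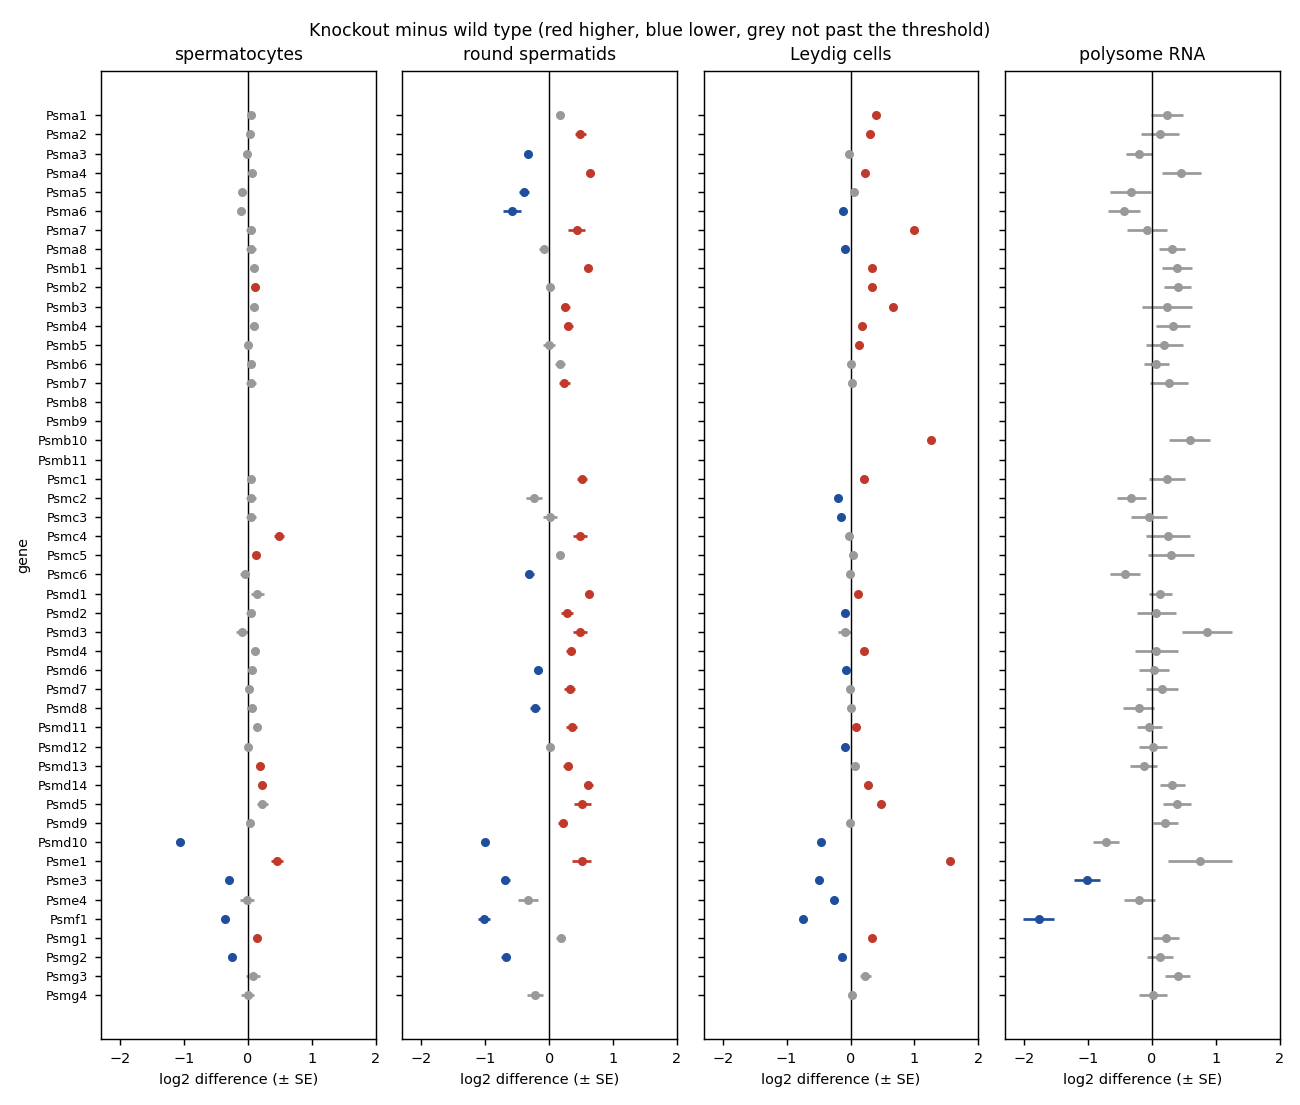
Log2 difference between KO and WT for the tested proteasome genes, with standard errors, in 4 panels, 1 for each cell fraction and 1 for polysome RNA, ordered by role; red and blue mark genes called higher and lower. Psmf1, Psme3 and Psmd10 lie below 0 in all 4 comparisons, while Psme1, Psmb10 and Psma7 stand far above 0 in Leydig cells.

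In polysome RNA of KO testis, Psmf1 and Psme3 were lower than in WT and 0 proteasome genes were higher, of 44 tested (5.77% of all tested genes lower and 0.572% higher, 6.34% called); the median was 0.13 over the proteasome genes and 0.13 over all genes. Psmf1 read 7012, 6480 and 7732 on the WT arrays and 2393, 2427 and 1484 on the KO arrays. The groups were far apart, at 3.42-fold (-1.77 ± 0.24, adjusted p = 0.00230). Psme3 read 4469, 5464 and 4423 in WT and 2473, 2511 and 2060 in KO (-1.02 ± 0.20, adjusted p = 0.0165), also without overlap. Psmd10 read 947.6, 767 and 724.8 in WT and 503.8, 505.1 and 448.8 in KO. Its difference of -0.72 ± 0.20 did not pass (adjusted p = 0.0765) but passed with the replicate block (adjusted p = 0.00666). The other probe sets of Psmf1 gave 0.06 (adjusted p = 0.944) and 0.37 (0.504), and that of Psme3 gave 1.02 (0.265).

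All 7 standard beta subunit genes had positive differences in polysome RNA (0.07 to 0.40) but 0 passed. The median over all tested genes was also positive, at 0.13, and centring each array on its median lowered every difference by 0.17. The signs of the smaller differences therefore rest on the scaling. With the replicate block, 3 proteasome genes were higher, the immune beta subunit Psmb10 (adjusted p = 0.0175), Psmd3 (0.00287) and Psme1 (0.00773), and Psmf1, Psme3 and Psmd10 were lower. Here too the WT mean of Psmb10 lay under the lowest mean tested (8.19 on the log2 scale), so its KO arrays brought it into the test. Psme1 read 939.4, 1356 and 354.9 in WT and 1752, 1772 and 721.5 in KO, so the groups overlapped although each KO array was above the WT array of its number. On the same arrays 6 of 6 Leydig markers had positive differences (median 0.96, 0 called and 6 higher with the block), with summed signals of 21004 to 40506 in WT and 40293 to 65871 in KO. Of 9 Sertoli cell markers 6 were tested and 6 were positive (median 0.58, 0 called and 4 higher with the block), with sums of 21107 to 38692 and 37929 to 46907. The part of either list in these values was not tested. The call of Psme3 was lost without WT array 1 (adjusted p = 0.0597), KO array 1 (0.0598) or KO array 3 (0.0778). For WT arrays 1 and 2 and KO array 1 a free-text description names another group than the title; leaving them out keeps 1 WT array against 2 KO arrays, and the lone WT array is then assumed to vary like the KO arrays. In that fit the adjusted p of Psme3 was 0.240, and Psmf1 was the 1 proteasome gene called.

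The difference between the knockout values in polysome RNA and in round spermatids passed for 1 of 43 proteasome genes (0.539% of all tested genes higher and 2.25% lower, 2.79% called). This was Psmg2, at 0.81 ± 0.18 (adjusted p = 0.0389). Its polysome arrays overlapped, with 2913, 2593 and 3134 in WT and 3382, 3225 and 2840 in KO, whereas its round spermatid arrays did not. The call was lost without any single round spermatid array (adjusted p = 0.0632 to 0.120) and without WT polysome array 1 (0.0587), KO polysome array 1 (0.0510) or KO polysome array 2 (0.0624). It was also lost with no filter (0.131), after median centring (0.0726), with the values as deposited (1.00) and with the mean of all probe sets (0.423). With the replicate block Psmd1 passed as well (-0.50, adjusted p = 0.0410 against 0.111). The second probe set of Psmg2 differed by -0.30 in polysome RNA (adjusted p = 0.678).

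In the GRTH pulldown 0 of 45 tested proteasome genes differed from the IgG pulldown, and so did 0.00% of all tested genes, by limma; 0 proteasome genes and 364 of all genes had an unadjusted p under 0.05. The smallest adjusted p of a proteasome gene was 0.977. Psmf1 read 4372 and 4002 on the GRTH arrays and 15760 and 5143 on the IgG arrays, so the IgG arrays were far apart. Differences were negative for 34 of the 45 genes and positive for 11 (median -0.38, against -0.02 over all genes). Pulldown arrays of the same antibody differed with an SD of 1.02 and 1.16 on the log2 scale, against 0.0810 to 0.309 between arrays of a cell fraction, and 1 IgG array has a free-text description that names another group.

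In Leydig cells of KO mice 18 of 44 tested proteasome genes were higher and 12 lower (38.6% and 39.3% of all tested genes, 77.9% called), with a median of 0.03 against -0.01. Centring each array on its median shifted all genes by 0.17 and changed the split to 11 higher and 24 lower, and quantile normalisation changed it to 25 and 7, so the split by direction rests on the scaling. Psme1, Psmb10, Psma7, Psmf1, Psme3 and Psmd10 kept their direction under both. Psme1 read 727.4 and 704.8 in WT and 2204 and 2081 in KO, 2.95-fold higher (1.56 ± 0.04, adjusted p = 3.40e-05). Psmb10 read 194.2 and 203.7 in WT and 495.6 and 498.5 in KO (1.26 ± 0.03, adjusted p = 3.24e-05). Its WT mean lay under the lowest mean tested (7.80 on the log2 scale), so Psmb10 was tested only because of its brighter KO arrays. Psma7 read 984.2 and 1046 in WT and 1987 and 2103 in KO (1.00 ± 0.05, adjusted p = 0.000143). In these genes the KO arrays were clearly apart from the WT arrays, whereas Psma8 moved little (6767 and 6756 against 6390 and 6311).

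The other immunoproteasome subunits were too dim to be tested in Leydig cells. With all genes tested, Psmb8, which replaces Psmb5, differed by 1.01 (61.6 and 88.38 in WT, 173.5 and 157.6 in KO, adjusted p = 0.0276), and Psmb9 by 1.00 (69.59 and 65.91, 149.6 and 154.5, adjusted p = 0.00226). Of the standard beta subunits 5 of 7 were higher, with the largest rise in Psmb3 (1578 and 1609 against 2551 and 2521, 0.66 ± 0.02), and their catalytic genes differed little (Psmb5 0.13, Psmb6 0.00, Psmb7 0.03). The falls were again led by Psmf1, Psme3 and Psmd10. Psmf1 read 9149 and 9184 in WT and 5412 and 5546 in KO (-0.74 ± 0.02, adjusted p = 5.32e-05). Psme3 read 3714 and 3807 against 2643 and 2654, and Psmd10 read 756.2 and 718.5 against 540 and 525.4. Psme4, read at 8700 and 8692 in WT and 7192 and 7339 in KO, fell by 0.26. None of these 4 genes' groups overlapped, in a comparison where 77.9% of all tested genes were called.

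Other markers moved in the same fraction. Leydig markers were higher in KO for 6 of 6 genes (median 1.27, sums 30945 to 30999 in WT and 57168 to 58074 in KO), elongating spermatid markers lower for 14 of 14 (sums 214035 to 216672 and 136804 to 139377), and of 12 macrophage markers 9 were tested, 8 higher and 1 lower (sums 11892 to 12009 and 14297 to 14491). The macrophage list summed to more in WT round spermatids (17456 to 22516), so its sum is no measure of macrophages alone. Macrophages express immunoproteasome subunits, and Csf1r, a macrophage receptor, rose from 977.3 to 2667; the part of these markers in the proteasome results was not tested. Each group has 2 arrays whose values are close to identical (SD of the log2 difference 0.0992 in WT and 0.0810 in KO). The replicate block ended the calls of Psmd12 (adjusted p = 0.0560) and Psmd6 (0.0662), and leaving out single arrays ended those of Psma6, Psma8, Psmc3, Psmd1, Psmd2, Psmd6, Psmd11 and Psmd12, all with differences of 0.15 or less in size.

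**Figure D5:**
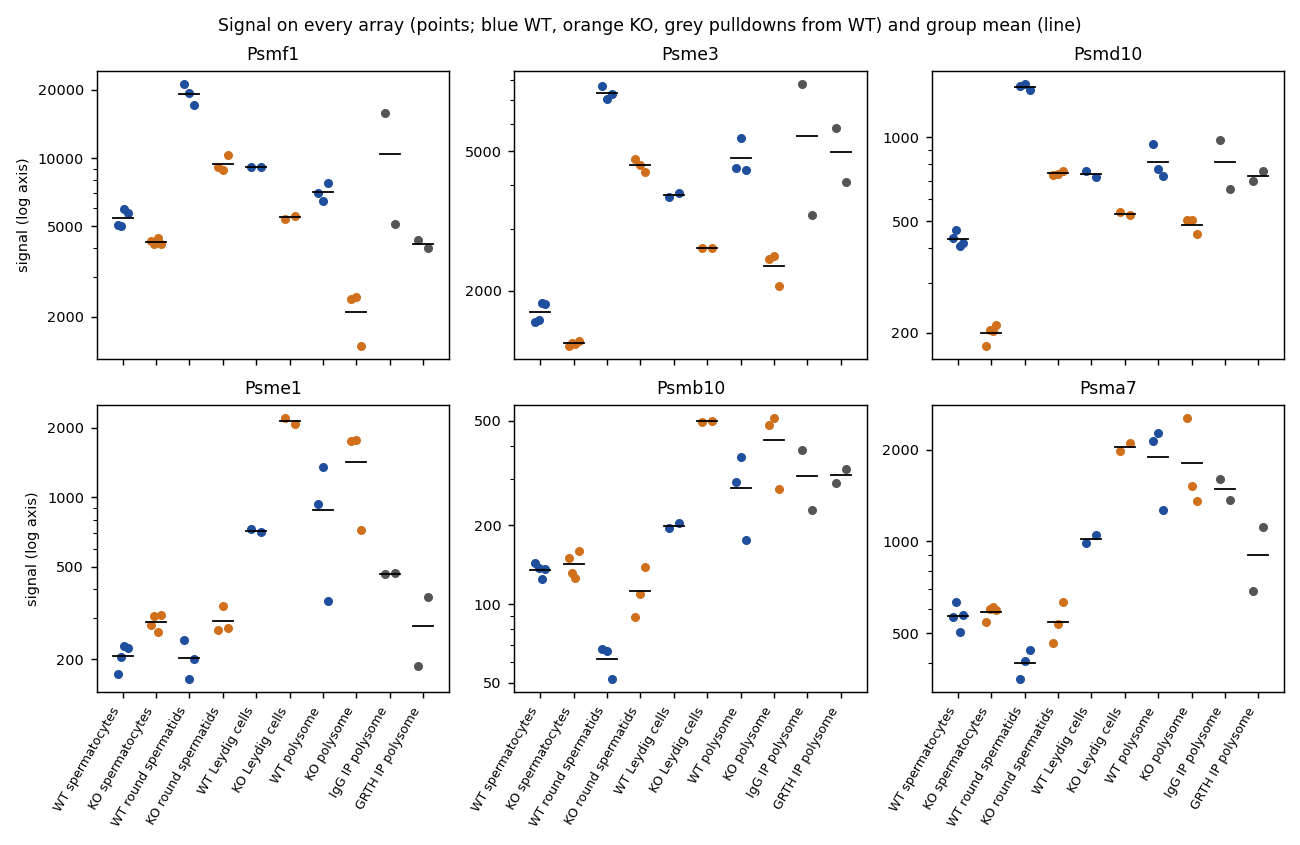
Signal on every array (log axis) of proteasome genes named in the text, by group, with WT in blue, KO in orange and the pulldowns in grey. The KO points of Psmf1, Psme3 and Psmd10 lie under the WT points in each cell fraction and in polysome RNA, and the KO Leydig points of Psme1 (2081 and 2204) lie above every other array of that gene.

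The promoter stretches of the genes with the largest rises in KO Leydig cells are those of Psme1 (chr14:55578394-55578493, plus strand), Psmb10 (chr8:105938393-105938492, minus strand) and Psma7 (chr2:180042465-180042564, minus strand).
Psme1: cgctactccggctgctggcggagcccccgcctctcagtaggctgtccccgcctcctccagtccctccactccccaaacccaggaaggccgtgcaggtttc
Psmb10: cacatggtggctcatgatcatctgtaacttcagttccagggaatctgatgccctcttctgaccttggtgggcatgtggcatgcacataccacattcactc
Psma7: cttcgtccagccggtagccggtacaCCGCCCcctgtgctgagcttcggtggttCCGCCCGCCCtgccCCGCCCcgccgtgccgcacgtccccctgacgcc

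The Psma7 stretch held 4 GC boxes, some of them overlapping, and those of Psme1 and Psmb10 held no searched motif. The window of Psme1 held the interferon-stimulated response element 9 bases after the start, outside the stretch shown, and that of Psmb10 did not.

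WT Leydig cells differed from the mean of WT spermatocytes and round spermatids in 25 of 43 tested proteasome genes, 21 higher and 4 lower (30.7% and 21.9% of all tested genes, 52.6% called), with a median of 0.15 against 0.03. The Leydig arrays also held germ cell transcripts, whose part in these values was not tested. Elongating spermatid marker sums were 214035 to 216672 on them, 138331 to 167603 in WT spermatocytes and 376773 to 518265 in WT round spermatids. The higher genes were led by Psme1 (1.74 ± 0.13, 3.35-fold, adjusted p = 7.93e-06), whose 2 Leydig arrays (727.4 and 704.8) were above all 7 germ cell arrays (163.5 to 241.7). Psma7 was next at 1.07 ± 0.10, with Leydig arrays of 984.2 and 1046 over germ cell arrays of 352.3 to 632.6. The lower genes were Psme4 (-0.50), Psmd8 (-0.29), Psmg2 (-0.28) and Psmd2 (-0.23). Psma8, at 0.76, stood between the levels of the germ cell stages. With all genes tested Psmb8 was higher by 1.82 (adjusted p = 0.00330) and Psmb10 by 0.99 (0.000226). The count fell to 12 without Leydig array 1 and to 14 without Leydig array 2; Psme4 was among the calls lost (adjusted p = 0.106 and 0.105). With the replicate block 21 were higher and 8 lower. Psma4 and Psmd5 (higher) and Psma6, Psmc2, Psmc3 and Psmd10 (lower) then passed (adjusted p = 0.00778 to 0.0469), and Psmd13 (0.0545) and Psmd9 (0.0670) did not.

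Across the 4 comparisons of KO with WT, which share no arrays, 42 proteasome genes were tested in all. Psme3 and Psmf1, by their brightest probe sets, were lower in all 4 (in spermatocytes not with near-identical arrays averaged), which is 4.76% of the proteasome genes and compares with 5.54% of the 7433 genes tested in all 4. Psmd10 and Psmg2 were lower in 3, and Psmd14 and Psme1 were higher in 3. In 3 or more comparisons 9.52% of the proteasome genes were lower and 4.76% higher, against 12.5% and 9.86% of all genes, so these shares did not exceed the background. Differences were positive in all 4 comparisons for 18 of the 42 genes (42.9%, against 25.8% of all genes), whether or not they passed, and negative in all 4 for 7 (16.7% against 19.6%). The signs of small differences rest on the scaling, since median centring shifted all genes by 0.17 in polysome RNA and in Leydig cells.

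The stage difference in WT and the knockout difference in polysome RNA come from separate arrays. Over the 43 proteasome genes tested in both, Pearson's r was -0.73 and Spearman's rho -0.66, and over 7993 genes of all kinds -0.59 and -0.49; genes within an array share its scaling and are not independent. The 7 proteasome genes higher in WT round spermatids had negative differences in KO polysome RNA in 7 of 7 cases, against 68.6% of all such genes, and 26 of the 31 lower ones had positive differences, against 75.9%. With Leydig cells the coefficients were -0.47 and -0.62 (all genes -0.39 and -0.39), with 7 of 7 and 22 of 31 genes of opposite sign (73.7% and 58.1% of all genes). The coefficients over all genes had the same sign as those over the proteasome genes.

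Genes that work with the proteasome were described as a separate list of 32, holding deubiquitinases, shuttle factors that carry ubiquitinated proteins, the segregase Vcp and its cofactors, and regulators of proteasome synthesis. In WT round spermatids 10 were higher and 15 lower than in spermatocytes, of 28 tested, or 89.3% called against 87.2% of all tested genes. The largest rises were those of the shuttle genes Ubqlnl (3.28), a ubiquilin-like gene, and Ddi1 (2.10), and of the Vcp cofactor Ufd1 (1.70); the largest falls were those of Zfand2a (-2.06), a stress-induced proteasome-binding protein, Pomp (-1.93), the maturation factor of the core, and the Vcp cofactor Nploc4 (-1.81). In KO, 3 of 29 were lower in polysome RNA and 0 higher (10.3% called against 6.34%). These were Ubqlnl (2273 to 276.1, -3.08), Ddi1 (5397 to 1026, -2.40) and Ngly1, the cytosolic N-glycanase (9132 to 4448, -1.04).

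In KO spermatocytes 5 partner genes were higher and 5 lower of 28 (35.7% called, against 37.4% of all tested genes), with falls of Ubqlnl (-1.72), Ddi1 (-0.61) and Ufd1 (-0.46). In KO round spermatids 12 were higher and 5 lower of 28 (60.7% against 63.4%), with falls of Ubqlnl (-2.39) and Ufd1 (-0.91) and rises of Nploc4 (913.0 to 2292, 1.32) and Zfand2a (0.91). In KO Leydig cells 13 were higher and 13 lower of 29 (89.7% against 77.9%), led by Ubqlnl (-2.08), Ubqln2 (1.11), a shuttle factor, Nfe2l2 (0.80), the activator of antioxidant genes, and Ddi1 (-0.69). Nfe2l1, the transcription factor that drives proteasome genes when the proteasome is impaired, was higher in KO spermatocytes (0.22, adjusted p = 0.00304), round spermatids (0.44, 0.0197) and Leydig cells (0.23, 0.00992), and did not pass in polysome RNA (0.39, 0.381). Between WT Leydig cells and WT germ cells 7 partner genes were higher and 7 lower of 28 (14 called, against 52.6% of all tested genes), and in the GRTH pulldown 0 of 28 passed.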

How the data were processed

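The authors' deposited values are array intensities, 1 per probe set on Affymetrix mouse arrays; the submitters' processing notes name GCOS, with its version, summary method and settings not given in the sources used here. Of the 28 deposited arrays 24 had a trimmed mean of 500.0 (0.02 trimmed at each end) and 4 polysome arrays (WT 1 and 2, KO 1 and 2) had 29.75 to 167.8, so every array was rescaled to 500 before any test. Groups follow the titles; the free-text descriptions of IgG array 1, WT polysome arrays 1 and 2 and KO polysome array 1 name another group. Of 45101 probe sets 34945 had 1 gene symbol, 932 several and 9160 none, and 64 were controls; symbols are those of the platform annotation, which can be old.

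Each gene was read from its probe set with the highest mean log2 value over the 28 arrays. Differences were tested on log2(signal + 16) with limma 3.58.1 (lmFit and eBayes, R 4.3.3), fitting the groups of a comparison alone, over genes at or above the median mean of its arrays, with Benjamini-Hochberg adjustment and a threshold of 0.05. The fit was tested on simulated data. Arrays give no counts; their number limits the precision. Promoters and figures were made with Python 3.11.15, pandas 2.3.3, numpy 2.4.6 and matplotlib 3.10.9.

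Same-numbered arrays deviated together: correlations of deviations from group means were 0.436 to 0.668 for polysome RNA, 0.260 to 0.386 for KO against WT spermatocytes and 0.138 to 0.247 for round spermatids, and 0.188 to 0.261 between the stages. The numbers, taken from the titles, were used as a block in an alternative fit. Correlations between arrays of different numbers were not computed, so a match number by number was not tested. The near-identical spermatocyte arrays (1 and 2, 3 and 4) could also match across numbers. Leydig cells (0.0277) and pulldowns (0.434) had 2 pairs, too few to judge this. Values with the number as a block are given where they change a call.

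Any proteasome gene could be named. Those given array by array or by mean and SD were to be the called genes with the 4 largest rises and falls of a comparison, and, in any case, Psma7, Psma8, the catalytic and immune beta subunits, Psme1, Psme3, Psme4, Psmf1 and Ddx25; up to 4 partners per comparison were named by smallest adjusted p, and Nfe2l1 and, between the stages, partners beyond those 4 were added after their values were seen. The members and lists were chosen with earlier results of these data known. Alternatives were the offset, the filter, quantile normalisation, median centring, deposited values, the mean of all probe sets, 1 fit over 24 arrays, the block, averaging near-identical arrays, and leaving out arrays.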

Additional observations from a re-analysis of the deposited data

Results flagged for a closer look

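In KO spermatocytes Psmb1 stood apart on array 4, at 4028 against 4318 to 4343 on the other arrays, a gap of 0.922 of the group's range; chance alone takes a gap past the threshold used here in about 1 in 20 groups. The 43 tested proteasome genes were searched in both spermatocyte groups, and this was the only gap flagged, so it is no more than chance alone would give.

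The difference between KO and WT was larger or smaller in round spermatids than in spermatocytes, by a test of that change, for 17 proteasome genes. It was higher in round spermatids for Psma4 (0.58 on the log2 scale), Psmd3 (0.57), Psmb1 (0.50), Psmd1 (0.47), Psmc1 (0.46), Psma2 (0.44), Psma7 (0.38), Psmd14 (0.38), Psmd7 (0.30) and Psmb4 (0.21). It was lower there for Psmf1 (-0.67), Psma6 (-0.48), Psmg2 (-0.43), Psme3 (-0.39), Psma3 (-0.32), Psma5 (-0.29) and Psmd6 (-0.24). Between polysome RNA and round spermatids it differed for Psmg2 (0.81, higher in polysome RNA).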

How the results depend on the processing

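Counts of called proteasome genes under other choices were as follows; the cause of a change was not tested. In KO polysome RNA (2 called) there was 1 with no filter, 0 with values as deposited, 0 with the mean of all probe sets, 14 in the fit over 24 arrays (9 higher, 5 lower), 6 with the replicate block, 1 without the arrays of conflicting description, and 1 to 3 when each array was left out. In spermatocytes (11) there were 5 after centring, 7 with the mean of all probe sets, 3 in the fit over 24 arrays, 17 with the block, 3 with near-identical arrays averaged and 8 to 10 with arrays left out. In round spermatids (30) there were 18 with the mean of all probe sets, 15 in the fit over 24 arrays and 24 to 31 with arrays left out; in Leydig cells (30), 18, 8 and 23 to 27. In WT Leydig against germ cells (25) there were 12 in the fit over 24 arrays and 12 to 29 with arrays left out. For the change of the knockout difference between stages (17) there were 10 after centring, 10 with the mean of all probe sets, 6 in the fit over 24 arrays, 27 with the block and 13 to 22 with arrays left out. Between polysome RNA and round spermatids (1) there were 0 with no filter, after centring, as deposited and with the mean of all probe sets, 4 in the fit over 24 arrays, 2 with the block, 2 without the arrays of conflicting description and 0 to 1 with arrays left out. Stage counts were 36 to 38 in WT and 33 to 36 in KO with arrays left out, and the pulldown count was 0 under every alternative.

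Some genes changed sign. With the mean of all probe sets these were Psme3 in spermatocytes (0.14); Psmc6 (0.08) and Psmd9 (-0.30) in round spermatids; Psmd11 (-0.04) and Psmf1 (0.00) in Leydig cells; Psmd2 (0.02) and Psmf1 (-0.60) between WT stages; Psmf1 between KO stages (-0.54) and in the change between stages (0.06); and Psma3 (-0.01), Psmc1 (-0.03), Psmd13 (-0.16), Psmd7 (-0.26) and Psmd9 (-0.25) in Leydig against germ cells. With quantile normalisation they were Psmd8 in KO round spermatids (0.10), between WT stages (-0.09) and in Leydig against germ cells (0.01), and Psma8 (0.06), Psmd12 (0.02), Psmd2 (0.03) and Psmd6 (0.08) in KO Leydig cells. After centring they were Psmb5 (-0.04), Psmd1 (-0.06) and Psmd11 (-0.09) in KO Leydig cells. In KO polysome RNA the mean of all probe sets gave -0.20 for Psmf1 (adjusted p = 0.735) and -0.03 for Psme3 (0.957).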
